A study of Homo sapiens with 60 samples.

Results

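The genes described here encode the subunits of the mitochondrial respiratory chain and ATP synthase, from both genomes of the cell. Members were protein-coding genes chosen by name (the NDUFA, NDUFB, NDUFC, NDUFS and NDUFV series, SDHA to SDHD, the UQCR genes, COX4 to COX8, the ATP5F1, ATP5M and ATP5P genes, CYC1 and CYCS) together with the 13 mRNAs of the mitochondrial genome. This gave 101 of the 60675 genes in the table, 88 of them nuclear. SW1783, a human astrocytoma line, was treated for 24 h with ethanol extracts of single herbs or of herbal formulas, and RNA was sequenced in 60 libraries. The 3 vehicle libraries received DMSO, at 0.1% by their labels and 2% by the text of the series. The doses of Astragali Radix were 220, 44 and 8.8 µg/mL. Those of Cinnamomi Cortex and of the formulas Palmul-tang, Sagunja-tang, Samul-tang and Sibjeondaebo-tang were 500, 100 and 20 µg/mL. Each of these 18 extract and dose groups had 3 libraries. Rehmanniae Radix Preparata was given at the same 500, 100 and 20 µg/mL with 1 library a dose. The series text says that an extract whose IC20 was below the common top dose was instead given from its IC20 downward, which applies to Astragali Radix by its doses. The labels do not say that the replicates came from separate cultures, so p-values measure the spread between these libraries, which may be technical.

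Electrons from NADH enter the chain at complex I (NADH dehydrogenase) and those from succinate at complex II, pass through complex III and cytochrome c to complex IV (cytochrome c oxidase), and the proton gradient built on the way drives ATP synthase, complex V. Complexes I, III, IV and V join subunits made from nuclear mRNAs in the cytosol with subunits made from mitochondrial mRNAs inside the organelle, while complex II and cytochrome c are wholly nuclear. Mitochondrial mRNAs are cut from long transcripts of either strand, mostly at the tRNAs that lie between them, and many promoters of the nuclear genes hold sites for NRF1, for ETS factors such as GABPA, or for YY1.

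In the mitochondrial genome (chrM, GRCh38), neighbouring messages share bases at the places below, so a read there cannot be given to 1 gene with certainty. The overlaps are shown because MT-ATP8, MT-ATP6 and MT-CO3, which lie side by side, carry the largest falls described further on, and because MT-ND4L was the 1 message called higher. Capitals mark the start codon of the second message and the stop codon of the first. MT-ATP6 and MT-CO3 share 1 base, at position 9207, with no tRNA between them. Sequences are from the GENCODE 29 transcripts.
MT-ATP8 and MT-ATP6 overlap, chrM:8527-8572, 46 bases: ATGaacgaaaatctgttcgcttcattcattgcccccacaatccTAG
MT-ND4L and MT-ND4 overlap, chrM:10760-10766, 7 bases: ATGcTAA

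Among the 69 nuclear members with a promoter in the RefSeq table (GRCh38.p14, 250 bases before to 50 after the start), 24.64% held the NRF1 letters (GCGCA, any base, GCGC), against 5.78% of all 35116 promoters. The ETS letters CCGGAAG were in 28.99% of them against 10.26%, and the YY1 letters AAGATGGC in 15.94% against 2.89%. Both strands were searched. Any of these motifs was present in 39 of the 69 (56.52%), against 17.03% of all promoters, while the TATA letters TATAAA were in 10.14% and 11.53%. A match describes these letters only. The promoters printed here belong to members that were higher (NDUFA1, COX4I1) or lower (SDHA, NDUFA3) at the high dose of Astragali Radix and were picked after those values were seen. Capitals mark the ETS letters, read on the minus strand, in NDUFA1 and COX4I1, the NRF1 letters in SDHA and NDUFA3, and the YY1 letters near the end of NDUFA3.
NDUFA1 promoter, chrX:119871582-119871881, plus strand: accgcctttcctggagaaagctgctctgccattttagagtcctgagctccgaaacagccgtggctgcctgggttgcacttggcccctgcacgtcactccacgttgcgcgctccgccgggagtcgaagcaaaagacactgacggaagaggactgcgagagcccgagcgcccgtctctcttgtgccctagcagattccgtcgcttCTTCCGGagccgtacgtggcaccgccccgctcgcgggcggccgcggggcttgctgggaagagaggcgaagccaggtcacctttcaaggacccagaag
COX4I1 promoter, chr16:85799445-85799744, plus strand: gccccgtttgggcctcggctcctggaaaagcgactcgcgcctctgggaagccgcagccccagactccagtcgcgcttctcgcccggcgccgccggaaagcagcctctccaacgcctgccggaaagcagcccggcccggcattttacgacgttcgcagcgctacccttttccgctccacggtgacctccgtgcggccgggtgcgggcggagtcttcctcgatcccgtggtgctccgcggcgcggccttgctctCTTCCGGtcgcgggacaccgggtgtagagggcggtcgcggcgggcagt
SDHA promoter, chr5:218070-218369, plus strand: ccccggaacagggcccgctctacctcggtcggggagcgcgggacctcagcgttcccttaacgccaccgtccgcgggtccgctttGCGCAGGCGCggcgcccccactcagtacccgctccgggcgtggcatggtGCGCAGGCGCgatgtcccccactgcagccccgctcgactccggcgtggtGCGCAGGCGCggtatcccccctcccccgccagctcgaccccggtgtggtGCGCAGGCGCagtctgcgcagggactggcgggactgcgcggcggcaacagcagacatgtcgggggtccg
NDUFA3 promoter, chr19:54102605-54102904, plus strand: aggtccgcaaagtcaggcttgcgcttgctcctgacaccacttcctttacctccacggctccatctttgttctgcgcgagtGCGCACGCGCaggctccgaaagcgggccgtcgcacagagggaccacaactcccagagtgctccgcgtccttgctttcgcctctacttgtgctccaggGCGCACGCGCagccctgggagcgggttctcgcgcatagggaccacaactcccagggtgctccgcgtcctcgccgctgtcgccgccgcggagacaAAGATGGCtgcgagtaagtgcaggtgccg

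Per kilobase of transcript, the most abundant members in the vehicle were the mitochondrial mRNAs of complex IV. MT-CO1, the catalytic subunit, stood at 10757 ± 451 CPM per kb (CPM, counts scaled to library size by TMM; SD, n = 3), MT-CO2 at 10433 ± 604 and MT-CO3 at 10216 ± 669, and these levels did not differ beyond their spread. MT-ND4 of complex I followed at 6737 ± 349 and MT-ATP6 of complex V at 6290 ± 85, and the lowest mitochondrial mRNA was MT-ND6, the complex I subunit on the other strand, at 926 ± 54.3. Nuclear members lay far lower. The median per kilobase of those tested was 64.7 in complex I, 60.4 in complex II, 115 in complex III, 144 in complex IV and 106 in complex V. Within complex I the level per kilobase ran from 9.88 ± 0.0767 for NDUFA9 to 183 ± 5.38 for NDUFS5, both accessory subunits. In complex II it ran from 59.4 for SDHD to 222 for SDHC, the membrane anchors, and in complex III from 0.991 for UQCRHL, a near copy of UQCRH, to 207 for UQCRB. In complex IV the lowest and highest were COX6B2 at 0.297 and COX8A at 407, and in complex V the readthrough gene ATP5MF-PTCD1 at 4.47 and ATP5MF at 660. CYCS, cytochrome c, stood at 293 ± 9.84.

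The isoforms of complex IV were nearly all of the common kind. Per kilobase in the vehicle, COX4I1 stood at 161, COX6A1 at 163, COX6B1 at 261, COX7A2 at 199, COX7A2L at 48.7 and COX7B at 160, while COX7B2 was at 0.377 and COX7A1, the isoform of heart and skeletal muscle, at 0.235. Members with too few reads to test were COX4I2 (0 counts in the 60 libraries), COX6A2 (3 counts in all), COX7A1 (281), COX8C (8) and ATP5MGL (22). The other 96 members, 83 nuclear and 13 mitochondrial, were tested among 17676 genes. Of the genes for the c-ring of ATP synthase, ATP5MC1 (175) and ATP5MC2 (187) were close and ATP5MC3 (9.01) was much lower.

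Library totals ran from 19793387 to 37152410 counts. Of 10 astrocyte and glioma markers, GFAP, S100B, AQP4, ALDH1L1 and SLC1A2, which mark mature astrocytes, were at 0 to 0.222 CPM in the vehicle, NES was at 5.25, SLC1A3 at 22.5, SOX9 at 81.8, CD44 at 2957 and VIM at 5528 CPM. Markers of other cell types were mixed. Of the neuron list RBFOX3 and STMN2 were at 0.139 and 0.138 CPM and SNAP25 and SYT1 at 19.6 and 36.3. Of the microglia list AIF1 and CX3CR1 were at 0 and 0.0132 CPM and CSF1R and PTPRC at 2.85 and 8.57. Of the endothelial list CDH5, VWF and PECAM1 were at 0.0138 to 0.714 CPM and KDR at 28.9, and the 6 fibroblast and pericyte markers ran from 14.4 (DCN) to 4355 CPM (COL1A1). Astragali Radix low replicates 1 and 2 stood apart from all other libraries: transcript length and GC content accounted for 35.8% and 53.9% of their deviation from the mean, against at most 16.3% in any other. They enter the shared estimate of spread, so a count of members below is followed by the count without them where it differs by over 1.5 times. Leaving them out also raised the calls over all genes. For the differences of dose trends below, that share went from 2.94%, 2.65%, 1.23% and 0.238% to 13%, 12.6%, 11.8% and 8.07%. Where that share is not given, a larger count without them cannot be read as particular to the members. The vehicle libraries carry a sample code in their labels that no extract library shares, so in every comparison with the vehicle the extract and that code cannot be told apart.

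All 13 mitochondrial mRNAs together were lower in every extract library than in the vehicle. Their summed level was 64622 to 69670 CPM in the 3 vehicle libraries (mean 67707 ± 2705, SD) and at most 58703 CPM in the 57 extract libraries, those of Rehmanniae Radix Preparata included, so the ranges did not overlap. The lowest extract library, Astragali Radix low replicate 2, was at 11675 CPM, and the next lowest at 39599. Nuclear members did not share this: their summed level was 7217 to 7435 CPM in the vehicle, and 8 extract libraries were below that range and 30 above it. With plain library totals the nuclear counts became 1 below and 51 above, while the mitochondrial sum was still below the vehicle in all 57. The log2 ratio of the mitochondrial to the nuclear sum was 3.12 to 3.25 in the vehicle and at most 3.01 in an extract library. These are bulk samples, so fewer mitochondrial transcripts per cell and a changed make-up of the culture cannot be told apart.

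**Figure D1:**
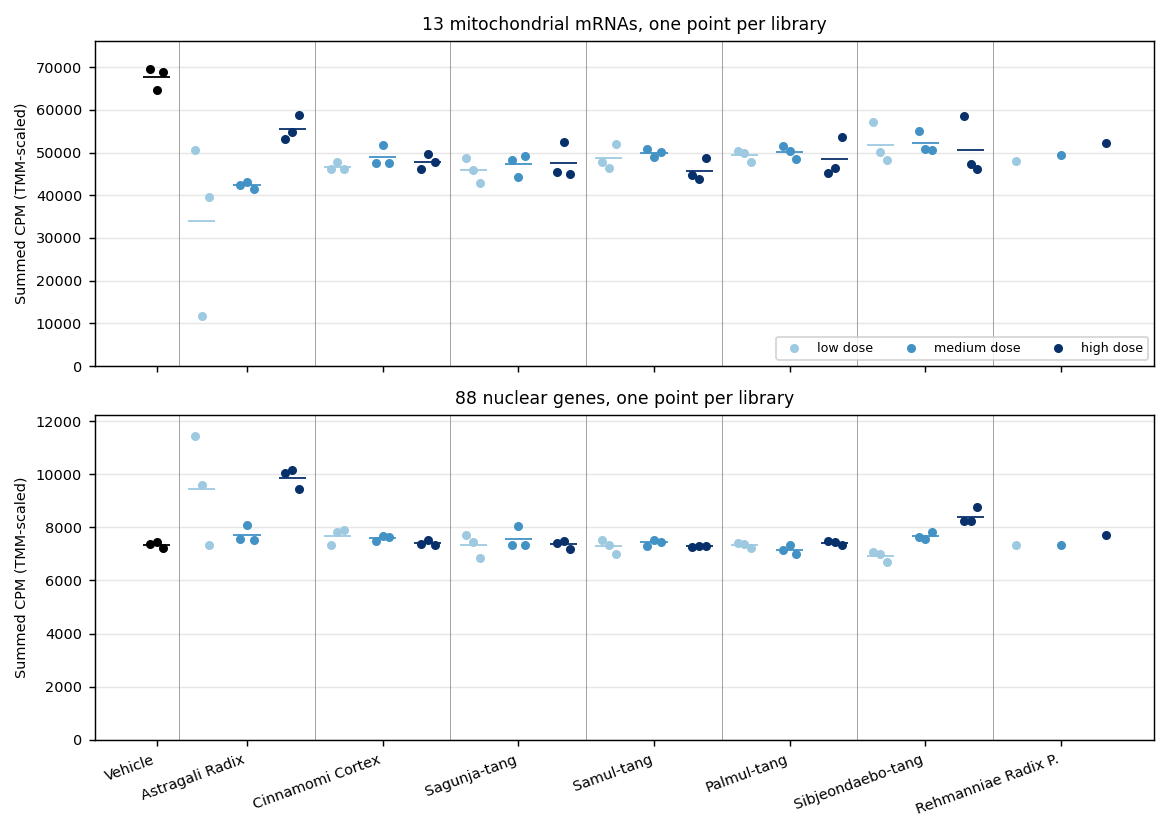
Summed CPM (TMM-scaled, y axes from 0) of the 13 mitochondrial mRNAs (top) and the 88 nuclear members (bottom), 1 point per library, horizontal bars at group means, groups along the x axis with doses in shades of blue. The 3 vehicle points (black) lie between 64622 and 69670 CPM in the upper panel, above all extract libraries, whereas in the lower panel the high doses of Astragali Radix and of Sibjeondaebo-tang, and part of the low dose of Astragali Radix, lie above the rest.

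Of single mitochondrial mRNAs, 8 of 13 were below the vehicle in all 57 extract libraries: MT-ATP8, MT-ATP6, MT-CO3, MT-CYB, MT-ND1, MT-ND2, MT-ND5 and MT-ND6. Among all genes tested, 1.36% were below the vehicle in all 57 libraries and 0.52% above it. The nuclear members above the vehicle in all 57 were ATP5F1A, the catalytic partner subunit alpha of ATP synthase, NDUFA9 and NDUFB2 of complex I, and UQCRQ of complex III. These counts hold for TMM scaling, lean on the same 3 vehicle libraries and are a description; with plain library totals ATP5F1A was below the vehicle at the high dose of Astragali Radix (log2 ratio -0.17). MT-ATP8 had the lowest log2 ratio to the vehicle among the 13 in each of the 18 groups. It was at 383, 567 and 416 CPM in the vehicle, and at 181, 245 and 165 CPM at the high dose of Cinnamomi Cortex, 163, 279 and 164 with Sagunja-tang, 170, 171 and 185 with Samul-tang and 148, 264 and 254 with Palmul-tang. None of these libraries reached the lowest vehicle library. Its log2 ratios in those 4 groups were -1.21, -1.17, -1.38 and -1.04, and in Palmul-tang the call was lost without vehicle replicate 2 (-0.84) or Palmul-tang high replicate 1 (-0.81). MT-ND6, from the other strand, was at 500, 505 and 453 CPM in the vehicle and at 220, 240 and 250 CPM at the high dose of Samul-tang, a log2 ratio of -1.04, again with no overlap.

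Under TMM scaling, the high dose of Astragali Radix had the highest group mean of the nuclear sum. The sum was 10030, 10147 and 9432 CPM by library, all above the vehicle. With plain library totals the sum was 7388 to 7683 CPM, above the 6937 to 7198 CPM of the vehicle. By that measure it was below Sibjeondaebo-tang high, at 8082 to 8683 CPM. Of 83 nuclear members, 50 were higher and 12 lower at an adjusted p below 0.05, against 32.6% and 35.6% of all genes tested (68.2% in either direction). Of the 13 mitochondrial mRNAs, 1 was higher and 4 lower. The median log2 ratio was 0.37 for nuclear members, -0.31 for mitochondrial ones and -0.06 for all genes tested. The split depended on the scaling: with plain library totals the median of all genes was -0.39, that of nuclear members 0.04 and that of mitochondrial ones -0.64, with 29 nuclear members higher and 29 lower and 9 mitochondrial mRNAs lower. Nuclear members were thus above the median of all genes under either scaling, and mitochondrial mRNAs below it. That median covers genes of every length and level. Other genes of at least 10 CPM, grouped by transcript length below, had medians of 0.25 to 0.32 up to 1200 bases under TMM scaling. Between 1200 and 4000 bases theirs were 0.07 to 0.15.

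**Figure D2:**
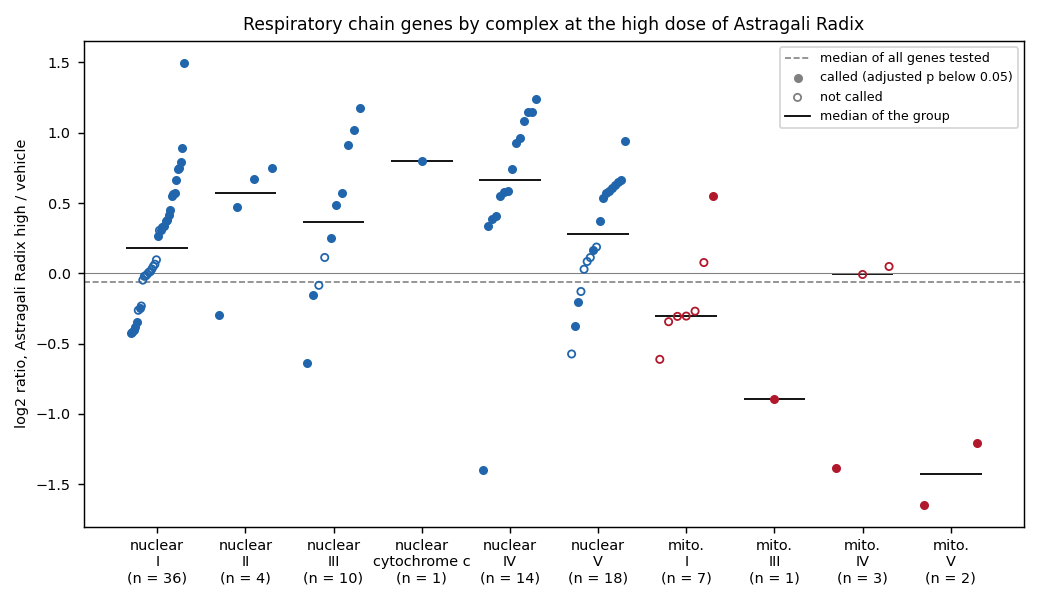
log2 ratio of Astragali Radix high to the vehicle (y axis) for each of the 96 members tested, grouped by genome and complex along the x axis; filled points passed an adjusted p of 0.05, open points did not, black bars are group medians and the dashed line is the median of all genes tested (-0.06). Nuclear complex IV has 13 of 14 points above 0, while the mitochondrial mRNAs spread from -1.64 to 0.55.

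Among the subunits of complex I, NDUFA1, a small accessory subunit whose gene lies on chrX:119871487-119876662 (GRCh38), rose most. It was at 39.0, 45.4 and 32.2 CPM in the vehicle and at 107, 116 and 106 CPM at the high dose of Astragali Radix. Every treated library was above the highest vehicle library, and the log2 change was 1.5 ± 0.15 (SE, adjusted p = 6.03e-12, 2.82-fold). NDUFA3, another accessory subunit, was at 55.3, 48.6 and 51.2 CPM in the vehicle and 40.9, 40.1 and 34.9 CPM after treatment, without overlap, and fell by 0.42 ± 0.11 on the log2 scale (adjusted p = 0.00137). NDUFV2, the iron-sulfur partner of the NADH-binding subunit, fell by 0.35 ± 0.08. Of other core subunits, NDUFS1 and NDUFV1 did not pass the test: NDUFS1, which carries iron-sulfur clusters, had a log2 ratio of -0.02 (adjusted p = 0.761), and NDUFV1, which binds NADH, 0.01 (adjusted p = 0.966; -0.33 with plain library totals, where it passed the test as lower). In all, 17 of the 36 nuclear members of complex I were higher and 6 lower, with a median log2 ratio of 0.18. Split after these values were seen, the 7 core subunits had 1 higher and 2 lower with a median of -0.05, and the 29 accessory subunits 16 higher and 4 lower with a median of 0.33.

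Complex II moved apart within itself. SDHA, the flavoprotein that oxidises succinate, was at 128, 128 and 125 CPM in the vehicle and at 104, 104 and 103 CPM at the high dose of Astragali Radix. The groups did not overlap, and SDHA fell by 0.30 ± 0.07 on the log2 scale (adjusted p = 9.33e-05). SDHB, the iron-sulfur subunit, rose by 0.47 ± 0.09 (adjusted p = 4e-06, and 0.14 with plain library totals, where it did not pass), SDHC by 0.75 ± 0.09 (1.46e-10) and SDHD, the other membrane anchor, by 0.67 ± 0.13 (1.87e-05). SDHC stood at 104, 102 and 102 CPM in the vehicle and 169, 172 and 174 CPM after treatment, so these 3 subunits lay on the other side of the vehicle from SDHA.

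In complex III, 6 of 10 nuclear members were higher and 2 lower, with a median log2 ratio of 0.37. UQCRH, the hinge protein that helps cytochrome c dock, was at 94.4, 99.7 and 88.01 CPM in the vehicle and 187, 202 and 183 CPM after treatment, with no overlap. Its log2 change was 1.02 ± 0.10 (adjusted p = 4.29e-12). UQCRHL, whose log2 ratio was 1.17, shares most of its sequence with UQCRH, and its reads are uncertain. UQCR10, a small subunit, went the other way, from 125, 118 and 121 CPM to 81.3, 76.5 and 77.2 CPM without overlap. It fell by 0.64 ± 0.11 (adjusted p = 4.23e-06). UQCRC1, a core protein, rose by 0.48 ± 0.08 (adjusted p = 2.51e-07), UQCRFS1, the Rieske protein, fell by 0.15 (adjusted p = 0.0489, lost with DESeq2, with length and GC trends removed, and without vehicle replicate 1 or 3 or Astragali Radix high replicate 3), and CYC1, cytochrome c1, had a log2 ratio of -0.09 that did not pass (adjusted p = 0.279). CYCS, which carries electrons on to complex IV, was at 281, 296 and 279 CPM in the vehicle and 500, 509 and 482 CPM after treatment. All treated libraries were above the vehicle, and CYCS rose by 0.80 ± 0.11 (adjusted p = 7.62e-09).

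Nuclear complex IV rose most evenly, with 13 of 14 members higher, 1 lower and a median log2 ratio of 0.66. Its share of the summed nuclear CPM was 21.9% at the high dose of Astragali Radix against 17.8% in the vehicle, while that of complex I was 26.3% against 28.9%. COX7A2L, which takes part in joining complexes III and IV into supercomplexes, was at 55.4, 53.1 and 53.9 CPM in the vehicle and 122, 125 and 113 CPM after treatment. The groups lay far apart, and the log2 change was 1.15 ± 0.08 (adjusted p = 5.01e-17, 2.22-fold). COX6C was at 67.4, 67.7 and 63.1 CPM and then 144, 143 and 151 CPM, a log2 change of 1.15 ± 0.13 (adjusted p = 1e-10). COX4I1, the largest nuclear subunit, was at 126, 131 and 126 CPM and then 236, 249 and 242 CPM, again without overlap, with a log2 change of 0.92 ± 0.10 (adjusted p = 1.01e-10). NDUFA4, counted here with complex IV, rose by 1.09 ± 0.15 (adjusted p = 3.02e-08) and COX7A2 by 0.96 ± 0.11 (7.29e-11).

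Other complex IV members named by the rule rose less. These were COX6A1 by 0.59, COX5A by 0.58 (adjusted p = 4.35e-07), COX8A by 0.41, COX7B by 0.38 and COX6B1 by 0.34 (adjusted p = 0.0104). With plain library totals COX8A (0.07), COX7B (0.05) and COX6B1 (0.00) did not pass, nor did COX7B (0.10) with length and GC trends removed. The minor isoforms were barely expressed: COX6B2 was at 0.413, 0.553 and 0.516 CPM in the vehicle and 0.151, 0.262 and 0.123 CPM after treatment, which makes it the 1 member that fell. COX7B2 was at 0.413, 0.0789 and 0.172 CPM and then 0.703, 0.436 and 0.43 CPM, with a log2 change of 1.24 ± 0.50 (adjusted p = 0.0256). In COX7B2 every treated library was above the vehicle, though by little in 1 case, and the call was lost without vehicle replicate 2 or 3 or Astragali Radix high replicate 1 (0.81 to 1.08), with length and GC trends removed (0.95) and with plain library totals (0.90).

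In complex V, 10 of 18 nuclear members were higher and 2 lower, with a median log2 ratio of 0.28. ATP5F1B, the catalytic beta subunit, was at 435, 458 and 468 CPM in the vehicle and 684, 670 and 624 CPM after treatment. The groups did not overlap, and it rose by 0.54 ± 0.05 (adjusted p = 2.24e-12). ATP5F1A rose by 0.17 (adjusted p = 0.0147), a call lost without vehicle replicate 2 or 3 or Astragali Radix high replicate 1 or 2 (0.12 to 0.15) or with length and GC trends removed (0.10), and had a log2 ratio of -0.17 with plain library totals. Of the c-ring genes, which encode the same mature protein, ATP5MC1 fell by 0.21 (adjusted p = 0.0234), ATP5MC2 had a log2 ratio of 0.08 (adjusted p = 0.472; -0.25 with plain library totals, where it passed the test as lower) and ATP5MC3 0.03 (adjusted p = 0.866). ATP5MF, a membrane subunit, was at 220, 210 and 210 CPM and then 167, 167 and 158 CPM, without overlap. It fell by 0.38 ± 0.09 (adjusted p = 0.000291); ATP5MF-PTCD1, which shares its reads, had a log2 ratio of -0.57 that did not pass (adjusted p = 0.0543).

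Among genes of at least 10 CPM, short transcripts were called higher more often at this dose, and most members are short: the median transcript length was 753 bases for the nuclear members tested, with 55 of 83 under 1000 bases. Of other genes with at least 10 CPM, 55.8% were called higher among those up to 600 bases, 56.1% between 600 and 800 bases, 53.1% between 800 and 1200 bases, 47.5% between 1200 and 2000 bases and 43.3% between 2000 and 4000 bases. Among members the counts in the same bins were 13 of 22, 18 of 24, 11 of 16, 3 of 10 and 4 of 10. In the same order, the median log2 ratio of these other genes was 0.32, 0.32, 0.25, 0.15 and 0.07. That of members was 0.39, 0.57, 0.35, 0.10 and -0.08, so between 1200 and 4000 bases members lay below the other genes. Over all genes tested, without the limit on CPM, the median log2 ratio was -0.12 up to 600 bases, -0.03 between 600 and 800 bases and -0.06 between 2000 and 4000 bases. With trends in length and GC content removed from each library, 42 nuclear members were higher and 20 lower, the median log2 ratio of nuclear members was 0.19, and 9 mitochondrial mRNAs were lower. Shares of all genes called in that setting are not given here, so these counts are not set against them. The part of length in what remained was not tested.

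The 13 mitochondrial mRNAs did not move as a block at the high dose of Astragali Radix. MT-CO3, of complex IV, was at 8615, 7714 and 7700 CPM in the vehicle and 2747, 3031 and 3410 CPM after treatment. It fell by 1.39 ± 0.20 on the log2 scale (adjusted p = 4.89e-08), with no overlap. MT-ATP6, the proton channel subunit of ATP synthase, was at 4217, 4309 and 4324 CPM and then 1717, 1852 and 1999 CPM, and fell by 1.21 ± 0.22 (adjusted p = 5.56e-06). MT-ATP8 was at 383, 567 and 416 CPM and then 144, 126 and 167 CPM, and fell by 1.64 ± 0.29 (adjusted p = 3.49e-06). These 3 messages, each far below the vehicle in all treated libraries, are neighbours on the genome. MT-CYB, of complex III, was at 5585, 5000 and 5950 CPM and then 2688, 2832 and 3369 CPM, and fell by 0.90 ± 0.23 (adjusted p = 0.000522).

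Under TMM scaling the catalytic subunit of complex IV stayed near the vehicle there. MT-CO1 was at 17118, 15799 and 16843 CPM in the vehicle and 16155, 16285 and 17036 CPM after treatment, overlapping ranges with a log2 ratio of -0.01 ± 0.17 (adjusted p = 0.97). MT-CO2 (0.05, adjusted p = 0.823) and MT-ND4 (0.08, adjusted p = 0.779) likewise did not pass. MT-ND1 (-0.30), MT-ND2 (-0.31), MT-ND3 (-0.61), MT-ND5 (-0.27) and MT-ND6 (-0.34), all of complex I, did not pass either (adjusted p = 0.0675 to 0.242), but passed as lower with plain library totals (-0.94 to -0.60) and with length and GC trends removed (-0.96 to -0.39). MT-ND4L, of complex I, was at 1159, 1194 and 1171 CPM and then 1632, 1644 and 1872 CPM, above the vehicle in all libraries, with a log2 change of 0.55 ± 0.24 (adjusted p = 0.0388). That call did not hold: it was lost when any 1 of the 6 libraries was left out (0.47 to 0.56), with length and GC trends removed (0.17) and with plain library totals (0.22). Since MT-ND4L and MT-ND4 share the bases printed above, reads there may be split between them. The mitochondrial rRNAs, which are no members, were also above the vehicle: MT-RNR1 at 2325 against 936 CPM (log2 change 1.31 ± 0.15) and MT-RNR2 at 19408 against 12939 CPM (0.58).

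As shares of the 13-mRNA sum, which library scaling does not touch, MT-CO3 was 12.4%, 11.9% and 11.2% in the vehicle and 5.17%, 5.53% and 5.81% at the high dose of Astragali Radix. MT-ATP6 was 6.05% to 6.67% and then 3.23% to 3.41%, and MT-ATP8 0.549% to 0.878% and then 0.230% to 0.285%. MT-CO1 went from 24.4% to 24.6% up to 29.02% to 30.42%, MT-ND4 from 13.3% to 14.2% up to 17.5% to 17.7%, and MT-ND4L from 1.66% to 1.85% up to 3.00% to 3.19%. For 9 of the 13 messages the treated and vehicle shares did not overlap. An exact two-sided permutation test of 3 against 3 libraries gave p = 0.1 for each of these 9, the smallest value this design allows (0.144 after Benjamini-Hochberg adjustment over 13), so it cannot reach 0.05. In the extract libraries outside Astragali Radix, the share of MT-CO3 was 8.93% to 12.7%, that of MT-ATP8 0.304% to 0.677% and that of MT-ND4L 1.62% to 2.40%. Shares in the Astragali Radix high libraries lay outside each of these ranges. Part of the pattern was also present elsewhere, to a smaller extent. At the medium dose of Astragali Radix, MT-CO3 was 9.08% to 9.88% and MT-ND4L 2.40% to 2.81%. At Sibjeondaebo-tang high, MT-CO3 was 8.93% to 10.5%, MT-ATP6 5.48% to 5.69% and MT-CO1 28.6% to 29.3%. Each of these lay outside the vehicle range, while MT-ND4 at Sibjeondaebo-tang high (13.2% to 14.8%) overlapped it.

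**Figure D3:**
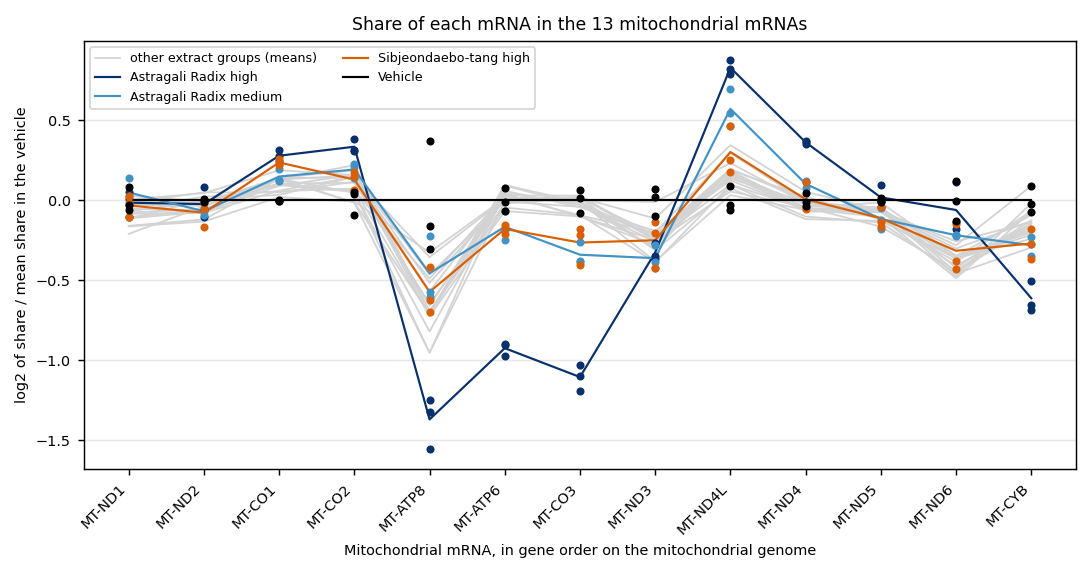
log2 of each mRNA's share of the 13-mRNA sum relative to its mean share in the vehicle (y axis), with genes in their order on the mitochondrial genome (x axis); points are libraries, lines are group means, and grey lines are the other extract groups. The Astragali Radix high line dips at MT-ATP8, MT-ATP6 and MT-CO3 and peaks at MT-ND4L, where its shares are 3.00% to 3.19% against 1.66% to 1.85% in the vehicle.

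At the medium dose of Astragali Radix, 10 of 83 nuclear members were higher and 3 lower (16.6% of all genes were called, 7.75% as higher and 8.81% as lower), and 10 of 13 mitochondrial mRNAs were lower. Without the 2 libraries that stand apart, the nuclear counts were 31 and 9 and the mitochondrial count 12. Leaving out medium replicate 2 gave 13 members called in place of 23, medium replicate 3 gave 15 and vehicle replicate 1 gave 14. The median log2 ratio was 0.08 for nuclear and -0.80 for mitochondrial members. MT-CO3 was at 3849, 3913 and 4095 CPM, below every vehicle library, and fell by 1.02 ± 0.20 (adjusted p = 0.000183), MT-ATP8 by 1.12 (adjusted p = 0.0042) and MT-CYB by 0.96. Here MT-CO1 also fell, to 11902, 11523 and 11042 CPM (by 0.53, adjusted p = 0.0271, lost without any 1 of these libraries other than vehicle replicate 2), whereas MT-ND4L at 1017, 1212 and 1051 CPM overlapped the vehicle (-0.10, adjusted p = 0.822). The largest nuclear rises were those of NDUFA1 (0.78), NDUFB2 (0.56) and NDUFS4 (0.40), all of complex I, and the largest falls those of NDUFS8 (-0.43), NDUFA3 (-0.39) and ATP5MF (-0.31). NDUFS8 did not pass without any 1 of the 6 libraries, NDUFA3 without vehicle replicate 1 or medium replicate 3, and ATP5MF without medium replicate 3.

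At the low dose of Astragali Radix the result rested on the 2 libraries that stand apart. With all 3 libraries, 58 nuclear members were higher and 0 lower (0 also at an unadjusted p below 0.05 and with DESeq2), against 21.6% and 19.2% of all genes (40.7% in either direction), and all 13 mitochondrial mRNAs were lower. The nuclear sum was 11425, 9575 and 7338 CPM and the mitochondrial sum 50567, 11675 and 39599 CPM, so the 3 libraries spanned more than all other groups. Without replicates 1 and 2, replicate 3 against the vehicle, with its spread assumed like that of the other groups, gave 7 nuclear members higher, 8 lower and 13 mitochondrial mRNAs lower, with medians of 0.04 and -0.82. NDUFA1 (log2 ratio 1.21), NDUFB2 (1.07) and NDUFB11 (0.83) were the largest rises with all libraries, but NDUFB11 had a log2 ratio of -0.13 without the 2. In the dose trend of Astragali Radix, the log2 change per 5-fold step, 22 nuclear members rose and 29 fell, with 70% of all genes called, 31.3% as rising and 38.7% as falling, and 8 mitochondrial mRNAs rose and 1 fell. Without the 2 libraries the nuclear counts were 51 and 12, and with plain library totals 4 and 58. COX7A2L (0.37 per step), NDUFA4 (0.35) and CYCS (0.29) led the rises among nuclear members, and NDUFS3 (-0.41) and NDUFV1 (-0.38) were among the falls. At the high dose NDUFS3 and NDUFV1 were near the vehicle (46.2 and 65.5 CPM against 47.8 and 65.2). Their low-dose means, 82.3 and 112 CPM, include the 2 libraries that stand apart. MT-ND4L rose by 0.97 per step and MT-CO3 fell by 0.24, a fall that did not pass without low replicate 1 (0.01) or 3 or high replicate 1 or 2. These slopes and the mitochondrial counts of the trend include the 2 low libraries that stand apart. The MT-ND4L share of the 13-mRNA sum was 0.735% and 1.23% in those 2 and 2.09% in low replicate 3.

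Sibjeondaebo-tang was the other extract with a rise of the nuclear members, and its dose trend uses no vehicle library. Their summed level was 6695 to 7058 CPM at the low dose, 7559 to 7819 at the medium dose and 8226 to 8750 at the high dose, 3 ranges that did not overlap. The low-dose range lay below that of the vehicle (7217 to 7435 CPM). With plain library totals they were 6844 to 7149, 7594 to 7794 and 8082 to 8683 CPM. In that measure the low dose overlapped the vehicle (6937 to 7198 CPM). Over the trend, 48 of 83 nuclear members rose and 1 fell, against 10.6% of all genes that rose and 10.7% that fell (21.3% in either direction), and no mitochondrial mRNA passed the test of edgeR (0 at an unadjusted p below 0.05, and 0 with DESeq2). The median was 0.14 per 5-fold step for nuclear and -0.00 for mitochondrial members. By complex, 21 of 36 rose in complex I, 2 of 4 in complex II, 5 of 10 in complex III, 10 of 14 in complex IV and 10 of 18 in complex V. High replicate 3 carried much of the count: without it 24 members were called in place of 49, and without low replicate 3 it was 28. The rank correlation of a library's deviations with transcript length was -0.398 to -0.196 in the high libraries and 0.303 to 0.344 in the low ones. Replicate 3 was the most extreme at both doses. Counts with length and GC trends removed are given below, and the part of length in this trend was not tested. Without the 2 Astragali Radix libraries the nuclear counts were 73 and 1.

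NDUFA1 had the largest slope. It was at 46.0, 47.9 and 40.2 CPM at the low dose, 60.9, 56.3 and 59.5 CPM at the medium dose and 69.9, 75.5 and 81.7 CPM at the high dose of Sibjeondaebo-tang. The 3 doses did not overlap, and the slope was 0.38 ± 0.07 per step (adjusted p = 0.000198). ATP5ME, a membrane subunit of ATP synthase, was at 55.5, 50.8 and 48.7 CPM, then 74.2, 60.8 and 71.8 CPM, then 75.4, 77.5 and 80.2 CPM, with a slope of 0.29 ± 0.08 (adjusted p = 0.00874). UQCRH was at 83.3, 85.8 and 82.0 CPM, then 103, 94.8 and 99.2 CPM, then 122, 119 and 133 CPM, with a slope of 0.29 ± 0.05 (adjusted p = 5.23e-05). Neither of these overlapped between doses. NDUFB2 (0.26, adjusted p = 0.000483) and COX6C (0.26, adjusted p = 0.00273) followed, COX6B2 fell by 0.50 per step (adjusted p = 0.0289) at under 1 CPM, a call lost without any 1 of these libraries other than low replicate 2, and CYCS had a slope of 0.09 that did not pass (adjusted p = 0.208).

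**Figure D4:**
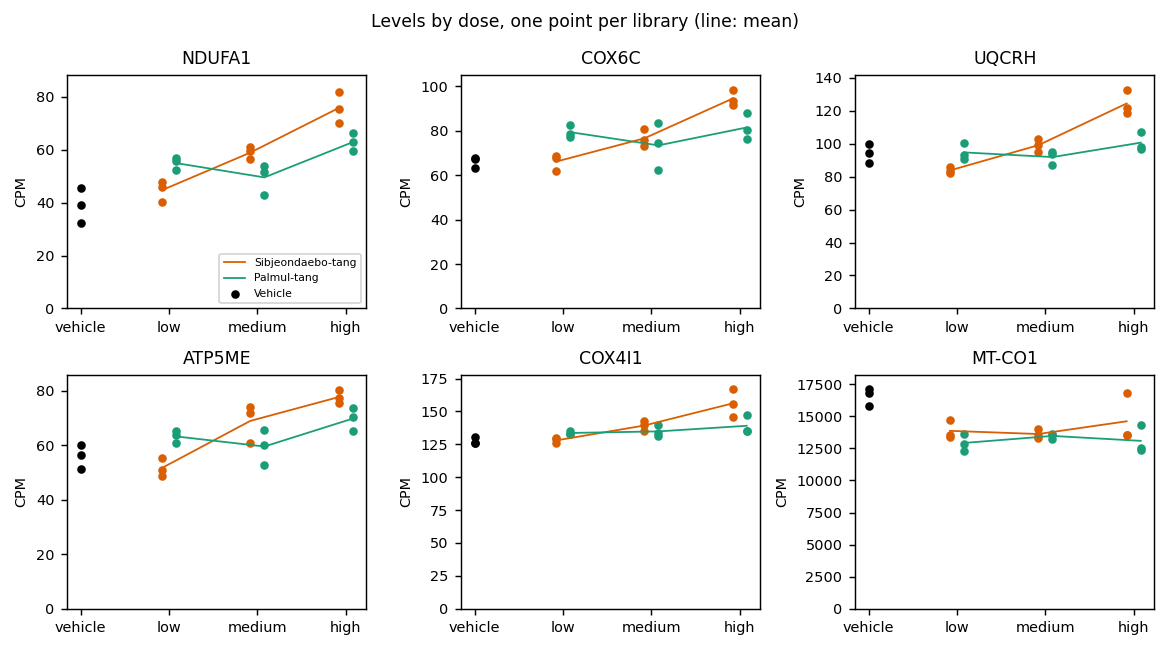
CPM (y axes from 0) of 6 members by dose in Sibjeondaebo-tang (orange) and Palmul-tang (green), with the vehicle in black; points are libraries and lines join group means. In Sibjeondaebo-tang, NDUFA1, COX6C, UQCRH, ATP5ME and COX4I1 step up with dose, NDUFA1 from 40.2 to 47.9 CPM at the low dose to 69.9 to 81.7 CPM at the high dose, while MT-CO1 does not.

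Transcript length was also set beside the dose trend of Sibjeondaebo-tang. Of other genes with at least 10 CPM, 40.0% of those up to 600 bases rose over the trend, 41.5% between 600 and 800 bases, 35.3% between 800 and 1200 bases, 24.9% between 1200 and 2000 bases and 13.0% between 2000 and 4000 bases. Members rose in 12 of 22, 18 of 24, 8 of 16, 3 of 10 and 6 of 10 cases in these bins. With length and GC trends removed, 32 nuclear members rose, 1 fell and the median slope was 0.08, and the share of all genes in that setting is not given here. At the high dose against the vehicle, 29 nuclear members were higher and 0 lower (1 at an unadjusted p below 0.05 and 0 with DESeq2, and 11.2% of all genes were higher and 11.9% lower), with a median of 0.21, and 6 mitochondrial mRNAs were lower. The count of members called was 19 without high replicate 3, in place of 35, and 54 nuclear members were called (52 higher) without the 2 Astragali Radix libraries. NDUFA1 (0.96), NDUFB2 (0.67) and COX7A2 (0.56) led. At the medium dose 5 were higher and 0 lower, with 5.76% of all genes called, 2.31% as higher and 3.45% as lower (12 and 1 members at an unadjusted p below 0.05). At the low dose 0 were higher and 6 lower, with 9.61% called, 4.15% as higher and 5.47% as lower (1 and 15 unadjusted). Over all members, the 6 called at the medium dose became 31 without the 2 Astragali Radix libraries and 3 without vehicle replicate 3 or medium replicate 3, and the 8 at the low dose became 37, or 5 without vehicle replicate 2 or 3 and 4 without low replicate 3.

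Cinnamomi Cortex, Sagunja-tang, Samul-tang and Palmul-tang changed the nuclear members little and in both directions. At their high doses 10, 8, 8 and 7 nuclear members were higher and 6, 7, 9 and 5 lower, with 16.3%, 22.7%, 19.7% and 20.3% of all genes called in either direction. Of all genes tested, 7.7%, 11.2%, 9.37% and 10% were called higher and 8.56%, 11.6%, 10.3% and 10.2% lower. Without the 2 Astragali Radix libraries the members' counts became 19, 18, 19 and 22 higher and 17, 16, 17 and 15 lower. Shares of all genes in that setting are not given here, so these counts are not set against them. The median log2 ratio of nuclear members over the 12 groups of these extracts lay between -0.04 and 0.08, and that of mitochondrial mRNAs between -0.63 and -0.47. At these high doses 5, 7, 7 and 5 mitochondrial mRNAs passed the test as lower, and 13 each without the 2 Astragali Radix libraries. At the medium doses 15, 17, 12 and 8 of the 96 members were called, nuclear and mitochondrial together, where 13%, 13.5%, 12.1% and 10.2% of all genes were. At the low doses the members called were 18, 23, 12 and 5, where 13.2%, 14.1%, 11.3% and 9.84% of all genes were called. Without the 2 Astragali Radix libraries these became 50, 48, 49 and 43 at the medium doses and 50, 48, 44 and 39 at the low doses. By edgeR 0 members passed the test for a dose trend in any of the 4, where 0.441%, 3.78%, 1.41% and 3.68% of all genes did. At an unadjusted p below 0.05 there were 2, 2, 0 and 0 members, and with DESeq2 0 in each. Leaving out single libraries moved the counts of all members called: from 21 to 13 at Cinnamomi Cortex high without vehicle replicate 1 or 3 or any of its own, from 22 to 13 or 14 at Sagunja-tang high without vehicle replicate 1 or 3 or its own 1 or 3, from 24 to 12 or 13 at Samul-tang high without vehicle replicate 1 or 3 or its own 1 or 2, and from 17 to 10 or 11 at Palmul-tang high without its replicate 1 or vehicle replicate 3.

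**Figure D5:**
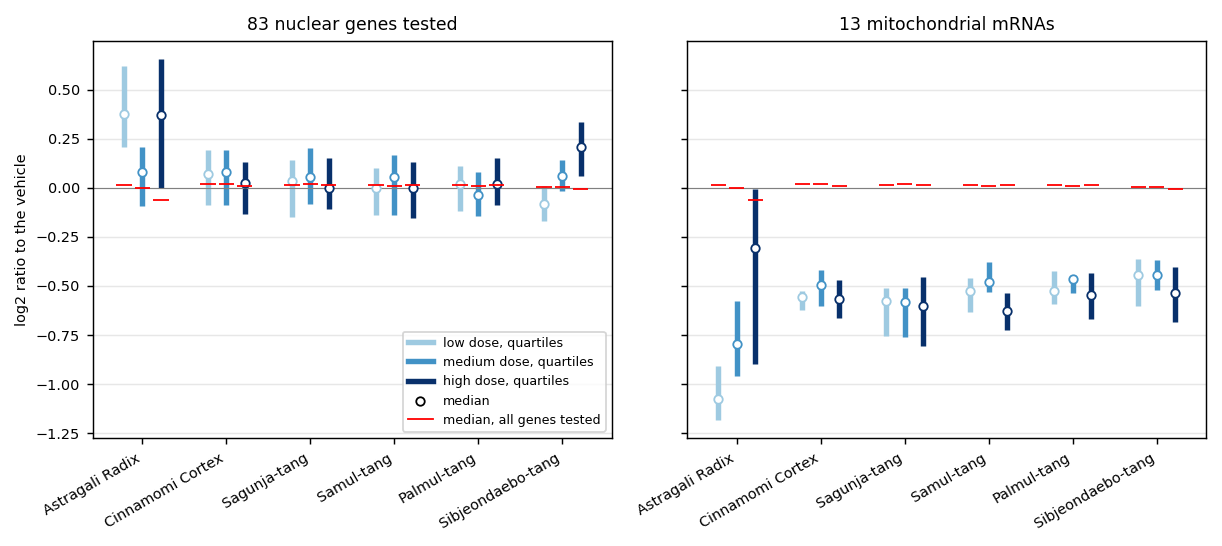
Median (open circles) and quartiles (bars) of the log2 ratio to the vehicle (y axis) over the 83 nuclear members tested (left) and the 13 mitochondrial mRNAs (right), for 6 extracts (x axis) at 3 doses (shades); red dashes are the medians of all genes tested. Nuclear medians lie near 0 except in Astragali Radix low and high and Sibjeondaebo-tang high (0.21), while mitochondrial medians are below 0 in all 18 groups.

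The same few members led these groups, all set against the same vehicle libraries. NDUFA1, at 39.0, 45.4 and 32.2 CPM in the vehicle, was at 62.3, 64.2 and 61.6 CPM at the high dose of Cinnamomi Cortex, 68.5, 69.7 and 57.8 CPM with Sagunja-tang, 64.3, 69.5 and 56.3 CPM with Samul-tang and 62.8, 66.3 and 59.5 CPM with Palmul-tang. All these libraries were above the vehicle, with log2 ratios of 0.69, 0.75, 0.70 and 0.69. ATP5MF was the largest fall among nuclear members in Cinnamomi Cortex (-0.45), Sagunja-tang (-0.44) and Palmul-tang (-0.37), and NDUFA3 in Samul-tang (-0.43). At the low dose of Sagunja-tang, COX6A1 was among the largest falls (-0.39, adjusted p = 0.00146).

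Formulas were compared at the common high dose of 500 µg/mL. The sample codes of Palmul-tang and Sibjeondaebo-tang begin alike, and those of Sagunja-tang and Samul-tang begin otherwise. In Palmul-tang against Sagunja-tang or Samul-tang, the formula and that code therefore cannot be told apart. Between Palmul-tang and Sagunja-tang 0 members passed the test of edgeR (0 at an unadjusted p below 0.05, and 0 with DESeq2), and between Palmul-tang and Samul-tang 0 as well (1 unadjusted, 0 with DESeq2), with 0.916% and 1.69% of all genes called. Between Sibjeondaebo-tang and Palmul-tang, 3 members passed as higher and 0 as lower, with 5.45% of all genes called, 1.75% as higher and 3.71% as lower: NDUFA7 (0.28, adjusted p = 0.0473), NDUFV2 (0.25, adjusted p = 0.0372) and NDUFV3 (0.19, adjusted p = 0.0453), all of complex I. NDUFV2 was at 65.9, 69.6 and 72.5 CPM against 58.0, 58.4 and 58.7 CPM, without overlap. The count was 0 without Palmul-tang high replicate 1 or 3 or without Sibjeondaebo-tang high replicate 3, 0 with plain library totals, 9 with DESeq2, 5 with the replicate block, 10 with length and GC trends removed, and 48 without the 2 Astragali Radix libraries.

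Rehmanniae Radix Preparata had 1 library a dose and no test. The median log2 difference from the vehicle was 0.09, 0.03 and 0.01 for the nuclear members at the high, medium and low dose, with 53, 51 and 44 of 83 above 0, while that of all genes was 0.02, 0.02 and 0.01. For the 13 mitochondrial mRNAs it was -0.38, -0.46 and -0.55, and none was above 0. NDUFA1 was at 64.2, 58.1 and 53.6 CPM in these libraries, above the 3 vehicle libraries.

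Genes that serve the respiratory chain without being part of it were counted at the high dose of Astragali Radix, where 32.6% of all genes tested were called higher and 35.6% lower. Of 8 regulators of mitochondrial gene expression tested, 5 rose and 2 fell: YY1 rose by 0.95 and GABPB1, the partner of GABPA, by 0.97, while the coactivators PPARGC1B and PPRC1 fell by 2.05 and 0.75. Singled out after their values were seen, NRF1 rose by 0.68 and GABPA by 0.77, and PPARGC1A (-0.07, adjusted p = 0.826) and TFAM, of the next list, which packages mitochondrial DNA and helps transcribe it (-0.04, adjusted p = 0.709), did not pass. Among 14 genes of mitochondrial DNA transcription and replication 2 rose and 6 fell, with TFB2M at 0.60 and MTERF2 at -1.44. Among 14 genes of mitochondrial RNA processing and stability 4 rose and 5 fell, with the helicase SUPV3L1 at 1.31 and its exonuclease partner PNPT1 at -0.96, ELAC2, which cuts tRNA ends, at -0.92 and GRSF1 at 0.61, and the counts of this last list are near the shares of all genes.

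Assembly factors are read against the same shares of all genes, 32.6% higher and 35.6% lower. Those of complex III had 1 of 8 higher and 6 lower with a median of -0.43, led by LYRM7 (-0.98) and BCS1L (-0.54), which insert the Rieske protein. Those of complex IV had 7 of 22 higher and 9 lower, with COX19 at 0.91 and COX18 at -1.06, counts near those shares. In complex I 6 of 16 were higher and 5 lower, with NDUFAF1 at 0.86 and NUBPL at -1.42, in complex II 3 of 4 higher and 1 lower, and in complex V 1 of 6 higher and 2 lower, with TMEM70 at 1.17. Of the tricarboxylic acid cycle 5 of 14 rose and 4 fell. Of 7 genes that feed electrons in by other routes 3 rose and 1 fell, with SQOR at 1.57, ETFDH at 0.55 and DHODH, of pyrimidine synthesis, at -0.86. Over the Sibjeondaebo-tang trend, where 10.6% of all genes rose and 10.7% fell, 6 of 16 complex I assembly factors and 10 of 22 of complex IV rose and none fell, as did 4 of the 7 genes of other electron routes.

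Promoter motifs were counted against the calls. At the high dose of Astragali Radix, the ETS letters were in 17 of 40 higher nuclear members with a promoter in the table, 0 of 10 lower ones and 3 of 17 that did not pass, and the NRF1 letters in 9, 4 and 3 of these. Over the Sibjeondaebo-tang trend, the ETS letters were in 12 of 38 members that rose and 8 of 28 that did not pass. These are counts of printed letters in a fixed window, with no test.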

How the data were processed

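The deposited table holds expected counts per gene from RSEM, made by the authors per the file's layout and the submitters' processing notes, which name FastQC 0.11.9, Trim Galore 0.6.5, STAR 2.7.3a, RSEM 1.3.3 and hg38. The labels' protocols name a directional mRNA library kit and 100 bp paired reads, and the strand setting of the counting and the annotation are not given in the sources used here. Of 279 columns, 60 belong to the series and 219 were not used. The deposited expected counts were whole in 90.8% of values (tolerance 1e-09) and were rounded. Genes were named through GENCODE 29, which held 57055 of the 60675 identifiers.

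The members and gene lists were chosen with earlier results of these data known. A single edgeR 4.0.16 fit took the 57 libraries of the vehicle and the 18 extract groups in R 4.3.3 (TMM, filterByExpr, quasi-likelihood F test, two-sided, 1 mean per group), and p-values were adjusted by Benjamini-Hochberg over 17676 genes; an adjusted p below 0.05 counts as called. The dose trend is high minus low divided by 2. CPM are TMM-scaled, fold changes used a prior count of 0.125, and SE was derived as log2 change over root F. Depth was 19793387 to 37152410 counts, and 3 libraries a group limit the precision. Genes named are the 13 mitochondrial mRNAs, fixed core subunits, isoform families, the extremes of level per length, and in each comparison up to 3 called nuclear members each way of at least 5 CPM, with up to 2 genes each way from each list. 1 item that this rule names is not reported here. The 3 members in the plots by dose beyond these were picked for display.

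On simulated counts for Palmul-tang high against the vehicle (17454 genes), 16, 41, 48 and 50 of 50 genes changed by 1.25, 1.5, 2 and 4-fold were recovered, and 7 of 17254 unchanged genes were called. The deviations of same-numbered libraries had a median r of 0.00913 (lowest -0.142), against -0.00503 for others, though 38 of 57 libraries lay closest to their own number. The numbers were not taken to pair the libraries in the main fit, and a replicate block was run as an alternative. Alternatives were DESeq2 1.42.0, no filter, only the groups compared, a replicate block, length and GC correction, scaling without mitochondrial genes, leaving out each library, and, for the levels per library, mean log2 CPM and plain totals. Plain totals in the tests, the combined settings with the 2 Astragali Radix libraries and all settings for the differences of dose trends were added after seeing the data.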

Additional observations from a re-analysis of the deposited data

Results flagged for a closer look

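The dose trends of Sibjeondaebo-tang were compared with those of extracts given at the same 500, 100 and 20 µg/mL, by a test of the difference of the 2 trends in the same fit (edgeR, adjusted over all genes). Against Cinnamomi Cortex, 15 nuclear members had a larger slope in Sibjeondaebo-tang (2.94% of all genes did), led by NDUFA1, whose slope was larger by 0.41 ± 0.10 per 5-fold step. Against Sagunja-tang there were 7 (2.65% of all genes), against Samul-tang 1, NDUFA9 (1.23%), and against Palmul-tang 1, NDUFV2, with a difference of 0.20 (adjusted p = 0.0417; 0.238%). The members that passed were all nuclear and all had the larger slope in Sibjeondaebo-tang. With 83 nuclear members tested, the count against Samul-tang was near the share of all genes. With plain library totals the counts against Samul-tang and Palmul-tang were 0. The counts turned on Sibjeondaebo-tang high replicate 3, without which they were 6, 1, 0 and 0, and low replicate 3, without which they were 7, 2, 0 and 0. The medians of the differences over nuclear members without high replicate 3 were 0.16, 0.13, 0.13 and 0.12, against 0.17, 0.14, 0.15 and 0.13 with it. Without the 2 Astragali Radix low libraries that stand apart, 68, 50, 60 and 48 of 84 nuclear members had a larger slope, where 13%, 12.6%, 11.8% and 8.07% of all genes did, 1 nuclear member had a smaller slope against Cinnamomi Cortex and 1 mitochondrial mRNA passed against Sagunja-tang.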

How the results depend on the processing

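Counts are of members called out of those tested, in the order high, medium and low dose against the vehicle, and the cause of each shift was not tested unless given. Where the share of all genes called in a setting is not given, a larger count there cannot be read as particular to the members. As reported they were 67, 23 and 71 for Astragali Radix, 21, 15 and 18 for Cinnamomi Cortex, 22, 17 and 23 for Sagunja-tang, 24, 12 and 12 for Samul-tang, 17, 8 and 5 for Palmul-tang and 35, 6 and 8 for Sibjeondaebo-tang, with 60 and 49 for the dose trends of Astragali Radix and Sibjeondaebo-tang and 3 for Sibjeondaebo-tang against Palmul-tang. Without the 2 Astragali Radix low libraries that stand apart they were 80, 52 and 28, then 49, 50 and 50, then 47, 48 and 48, then 49, 49 and 44, then 50, 43 and 39, then 66, 31 and 37, with 73 and 76 for these trends, 1 each for the trends of Cinnamomi Cortex and Sagunja-tang, 48 for Sibjeondaebo-tang against Palmul-tang and 1 for Palmul-tang against Samul-tang. Adding the length and GC correction to this gave 81, 48 and 32, then 54, 53 and 52, then 51, 49 and 51, then 54, 51 and 43, then 50, 40 and 42, then 60, 35 and 36, with 72 and 54 for the trends, 2, 2 and 1 for those of Cinnamomi Cortex, Sagunja-tang and Samul-tang, and 27, 2 and 1 for Sibjeondaebo-tang against Palmul-tang and Palmul-tang against Samul-tang and Sagunja-tang. Fitting only the groups compared gave 77, 61 and 0, then 61, 60 and 55, then 58, 56 and 54, then 63, 58 and 49, then 56, 49 and 54, then 67, 41 and 51. Trends in those fits gave 9, 2, 4, 1, 6 and 76 for the 6 extracts in the same order, and the formulas 53 and 5 for Sibjeondaebo-tang against Palmul-tang and Palmul-tang against Samul-tang.

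The length and GC correction with all libraries gave 36, 29 and 34 for Cinnamomi Cortex, 34, 29 and 37 for Sagunja-tang, 37, 28 and 27 for Samul-tang, 36, 22 and 22 for Palmul-tang, 16 and 15 for the medium and low doses of Sibjeondaebo-tang and 10 for Sibjeondaebo-tang against Palmul-tang. No filter on low counts gave 34, 29 and 31 for Cinnamomi Cortex, 29 for Sagunja-tang medium, 26 and 25 for Samul-tang medium and low, 30, 26 and 21 for Palmul-tang, 17 and 22 for Sibjeondaebo-tang medium and low, 7 for Sibjeondaebo-tang against Palmul-tang, and 1 each for the Sagunja-tang trend and for Palmul-tang against Samul-tang. DESeq2 gave 16 and 12 for Palmul-tang medium and low and 9 for Sibjeondaebo-tang against Palmul-tang. Plain library totals gave 11 for Palmul-tang low and 0 for Sibjeondaebo-tang against Palmul-tang, and put 51 extract libraries above the vehicle in the nuclear sum in place of 30.

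The replicate block, a term for the label's replicate number, moved 2 counts by over 1.5 times: Sibjeondaebo-tang against Palmul-tang, to 5, and the trend difference from Samul-tang given below, from 1 to 3. Together with the length and GC correction the replicate block gave 37, 31 and 34 for Cinnamomi Cortex, 36, 31 and 38 for Sagunja-tang, 37, 28 and 27 for Samul-tang, 38, 24 and 23 for Palmul-tang, 16 and 17 for Sibjeondaebo-tang medium and low, 1 for the Sagunja-tang trend and 11 for Sibjeondaebo-tang against Palmul-tang. The labels do not say that a number marks a shared culture or day, and 38 of 57 libraries lay closest to libraries of their own number.

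Leaving out 1 library at a time gave ranges of 13 to 20 for Astragali Radix medium, 13 to 15, 9 to 12 and 8 to 15 for Cinnamomi Cortex, 13 to 18, 11 to 17 and 10 to 15 for Sagunja-tang, 12 to 18, 5 to 9 and 6 to 10 for Samul-tang, and 10 to 16, 4 to 6 and 0 to 4 for Palmul-tang. For Sibjeondaebo-tang they were 19 to 34, 3 to 6 and 4 to 8, with 24 to 47 for its trend and 0 to 3 against Palmul-tang. The differences of its trend from those of Cinnamomi Cortex, Sagunja-tang, Samul-tang and Palmul-tang ranged over 6 to 15, 1 to 11, 0 to 3 and 0 to 2 nuclear members when each Sibjeondaebo-tang high or low library was left out. With plain library totals the last 3 were 3, 0 and 0, where 1.49%, 0.679% and 0.119% of all genes had a larger slope. With the length and GC correction they were 17, 9 and 6, where 6.8%, 3.98% and 2.08% of all genes did. The median difference over nuclear members in that setting was 0.09, 0.08 and 0.07, against 0.14, 0.15 and 0.13 as reported. Without the 2 Astragali Radix libraries all 4 were 68, 50, 60 and 48, where 13%, 12.6%, 11.8% and 8.07% of all genes had a larger slope.

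Some named genes changed sign. With plain library totals at Astragali Radix high these were NDUFV1 (-0.33), ATP5F1A (-0.17) and ATP5MC2 (-0.25), where the median of all genes was -0.39. NDUFB11 at Astragali Radix low was at -0.13 without the 2 libraries that stand apart and -0.074 with the length and GC correction besides. MT-CO2 at Astragali Radix high was called lower (-0.20) in that last setting, and the MT-CO3 slope of Astragali Radix was 0.011 without low replicate 1 and -0.45 without low replicate 2. What sequencing depth limits was not tested, and members under 1 CPM such as COX6B2 and COX7B2 rest on few reads.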
